A study of Mus musculus with 1753 samples.

Results

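The genes described here encode sensors of vasoactive hormones, prostanoids and nitric oxide: 8 cell-surface receptors and the 2 subunits of an intracellular one. These 10 genes were picked out by symbol in a table of 46517 mouse genes measured in 1753 single cells of adult skeletal muscle. The receptors bind endothelin (Ednra, Ednrb), angiotensin II (Agtr1a), vasopressin (Avpr1a), urotensin II (Uts2r), prostacyclin (Ptgir), prostaglandin F2 alpha (Ptgfr) and prostaglandin E2 (Ptger3). Gucy1a1 and Gucy1b1 encode the alpha and beta subunits of soluble guanylate cyclase, the receptor for nitric oxide. All 10 genes had counts and all 10 passed the filter on low counts. The set is defined by gene name, and it was drawn up with earlier results of these data known.

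Vascular mural cells, that is smooth muscle cells and pericytes, set the width of small vessels by contracting and relaxing. Endothelin, angiotensin II, vasopressin, urotensin II, prostaglandin F2 alpha and thromboxane act on receptors that mostly couple to Gq, which raises calcium through phospholipase C and leads to contraction. Prostacyclin acts through Gs and cyclic AMP, and nitric oxide acts through soluble guanylate cyclase and cyclic GMP, and both relax the muscle. Ptger3 couples mainly to Gi, which lowers cyclic AMP.

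The cells came from male mice of 10 to 20 weeks, under 5 strain labels: Acta2GFP, C57BL6, Cspg4dsRED, PdgfrbGFP and a pool of PdgfraGFP with PdgfrbGFP. The reporters mark cells in which the promoter of smooth muscle actin, of the proteoglycan gene Cspg4 or of a platelet-derived growth factor receptor gene is active, and cells were sorted on the reporters or on antibody staining for such markers. The study placed every cell in 1 of 10 clusters, which it made from these same counts: cluster 7 was mural (187 cells) and the other 9 (1566 cells) were fibroblasts, of which the study called 2 and 9 perimysial, 4 paramysial, and 1, 3, 5, 6 and 8 endomysial, while 10 carried Ngfr and Cspg4. Strain label stood for the replicate, and because strain, plate and sorting gate went together, their parts in a difference between strains cannot be told apart.

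Each cell held between 46097 and 1055869 counts (median 258251), and mural cells were shallower (median 156959). The summed level of 8 mural markers was 11250 in cluster 7, with strains from 8508 to 14660, and between 18.92 and 440.0 in the other clusters, so the label of cluster 7 held in its markers. The 6 fibroblast markers summed to 616.9 in cluster 7 and to at least 6529 elsewhere. The 5 pericyte markers summed to 1185 in cluster 7, with strains from 297.1 to 2613. Of the 187 mural cells, 179 held Myh11 of smooth muscle at a level of 100 or more, and 13 held the pericyte marker Kcnj8. The paper states that only a few pericytes were captured from skeletal muscle, so mural levels here describe mostly cells with smooth muscle genes. The 8 endothelial markers summed to 42.13 in cluster 7 (strains 6.252 to 146.5) and 6 immune markers to 152.8 (0 to 755.1), with 2 of the 8 and none of the 6 under a level of 1. Immune markers reached 100 in 5 of 187 mural cells, and 4 of those were among the 9 mural cells of C57BL6. A level here is always the mean over cells after each cell was scaled to 500000 counts, averaged per strain first and then over strains with its SD.

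The 250 bases before the start of a transcript were available from RefSeq (build GRCm38.p6) for 9 of the 10 genes, all but Agtr1a. Here 5 stretches are shown because they belong to the genes on which the results turned, the mural genes Gucy1a1, Gucy1b1 and Ednra and the perimysial gene Uts2r. Each is given 5′ to 3′ on the strand of its gene, in lower case, without bases that lie in an annotated exon of any gene. Capitals mark GGGCGG, the core to which Sp1 binds, and TGGGAA or its complement TTCCCA, the core bound by RBPJ of the Notch pathway.
Gucy1b1, chr3:82074712-82074961, minus strand: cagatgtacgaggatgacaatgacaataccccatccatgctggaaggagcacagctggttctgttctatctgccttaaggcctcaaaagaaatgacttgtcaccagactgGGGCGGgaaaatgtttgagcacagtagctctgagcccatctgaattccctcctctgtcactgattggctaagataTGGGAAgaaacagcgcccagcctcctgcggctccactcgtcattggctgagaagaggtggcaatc
Gucy1a1, chr3:82145790-82145900, minus strand: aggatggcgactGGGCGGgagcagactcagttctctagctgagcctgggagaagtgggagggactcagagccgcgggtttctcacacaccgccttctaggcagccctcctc
Gucy1a1, second start, chr3:82145074-82145262, minus strand: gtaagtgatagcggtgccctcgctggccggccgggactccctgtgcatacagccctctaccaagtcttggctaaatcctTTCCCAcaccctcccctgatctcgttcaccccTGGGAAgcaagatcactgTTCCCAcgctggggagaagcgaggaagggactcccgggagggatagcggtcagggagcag
Ednra, chr8:77724465-77724702, minus strand: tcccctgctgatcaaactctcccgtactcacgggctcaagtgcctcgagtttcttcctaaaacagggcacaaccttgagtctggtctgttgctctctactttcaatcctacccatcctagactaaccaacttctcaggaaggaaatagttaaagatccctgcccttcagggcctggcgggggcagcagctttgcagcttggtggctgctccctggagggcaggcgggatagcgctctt
Uts2r, chr11:121160021-121160270, plus strand: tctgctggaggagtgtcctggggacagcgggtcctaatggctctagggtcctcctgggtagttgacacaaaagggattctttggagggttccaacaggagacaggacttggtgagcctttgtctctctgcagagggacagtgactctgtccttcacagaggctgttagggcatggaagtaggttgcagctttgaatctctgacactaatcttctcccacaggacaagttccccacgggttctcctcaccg

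The Gucy1b1 stretch held 1 GGGCGG, 140 bases before the start, and 1 TGGGAA, 65 bases before it. The first start of Gucy1a1 had 1 GGGCGG 238 bases upstream, and the second had 3 TGGGAA on either strand, at 110, 78 and 60 bases. The stretches of Ednra and Uts2r held neither. In all, 4 motifs were searched on both strands in all 32851 mouse promoters of the same length: TGGGAA was found in 21.6% of them, GGGCGG in 32.7%, TATAAA in 12.4% and the CArG box, the site of serum response factor, in 1.47%. Among the other genes, GGGCGG occurred in the promoters of Ptgfr (1), Ptger3 (3) and Ptgir (2), and TATAAA once, in that of Avpr1a, 137 bases before its start. The CArG box was found in 0 of the 9 genes. These are matches of letters and no more.

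Gucy1a1 and Gucy1b1 lie in tandem on chromosome 3 (chr3:82092427-82145789 and chr3:82032006-82074689, both on the minus strand), 17738 bases apart. Gucy1a1 reached a level of 808.9 in the mural cells of Acta2GFP, 776.2 in C57BL6, 465.2 in Cspg4dsRED, 961.7 in the pool and 1407 in PdgfrbGFP, a mean of 883.8 ± 343.7 (SD, n = 5 strains). The next cluster was the endomysial cluster 6, at 28.67 ± 13.07 (SD, n = 4), and no strain of it came near the mural range. In the fit over strain sums, Gucy1a1 was higher in mural cells than in each of the 9 fibroblast clusters, by between 4.82 (cluster 6) and 11.33 (cluster 1) on the log2 scale.

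Gucy1b1 was also highest in mural cells, at a lower level. Its mural levels were 193.9 in Acta2GFP, 372.6 in C57BL6, 76.92 in Cspg4dsRED, 242.5 in the pool and 210.0 in PdgfrbGFP, a mean of 219.2 ± 106.1 (SD, n = 5). The next cluster, perimysial cluster 9, stood at 14.19 ± 13.26 (SD, n = 4) with a highest strain of 32.05, so the groups did not overlap. Its place as next rested on 1 cell of the pool, without which cluster 9 stood at 7.714, below cluster 6 at 9.575 without its own highest cell. Gucy1b1 was higher in mural cells than in all 9 clusters, by 4.43 (cluster 9) to 12 (cluster 5). Cluster 5 held 1 count in 31 cells, so the size of that difference is uncertain. The calls against clusters 6 and 9 were each lost when C57BL6 or PdgfrbGFP was left out, that against cluster 6 also without the pool (adjusted p at most 0.0739). With sums of 10 or more cells, which left cluster 4 with 1 sum, assumed to vary like the others, the calls against cluster 4 were lost for Gucy1a1 (adjusted p = 0.114) and Gucy1b1 (0.45).

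Against the mean of the 9 fibroblast clusters the log2 fold change was 8.77 ± 0.52 (SE) for Gucy1a1 (quasi-likelihood test of edgeR, adjusted p = 3.72e-15), and 7.27 ± 0.59 for Gucy1b1 (adjusted p = 9.98e-12). In this and every later fitted difference from a mean of clusters, the mean was over log2 levels with equal weight per cluster. Clusters with almost no counts pull such a mean down. Soluble guanylate cyclase works as a dimer of both subunits. Per kilobase of exon, the mural level was 126.8 for Gucy1a1 and 55.82 for Gucy1b1. The ratio of these per-length levels was 2.35 in Acta2GFP, 1.17 in C57BL6, 3.41 in Cspg4dsRED, 2.23 in the pool and 3.78 in PdgfrbGFP (2.59 ± 1.03, SD, n = 5), so Gucy1a1 exceeded Gucy1b1 in every strain. Of the 87 mural cells with Gucy1b1 at a level of 100 or more, 82 (94.25%) also held Gucy1a1 at that level, and 51.9% of the 158 mural cells with Gucy1a1 held Gucy1b1, out of 187 mural cells.

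**Figure D1:**
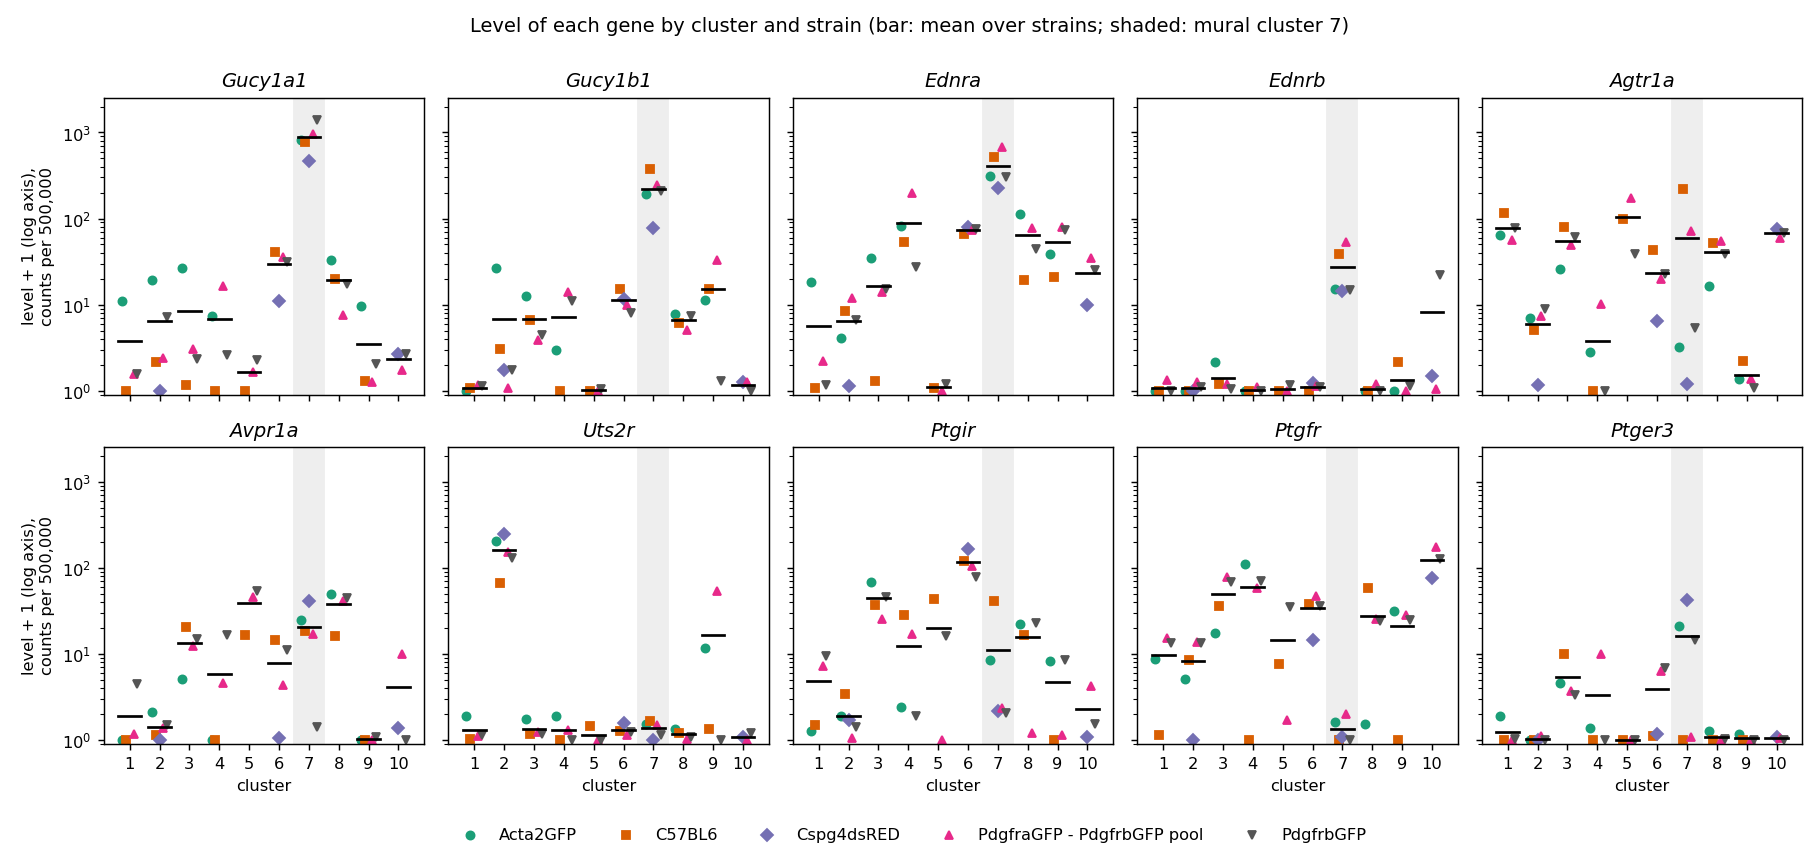
Level of each of the 10 genes (counts per 500,000 plus 1, log axis) in clusters 1 to 10, with 1 point per strain label, a bar for the mean over strains and the mural cluster 7 shaded. The points of Gucy1a1, Gucy1b1 and Ednra in cluster 7 lay above those of every other cluster, those of Uts2r in cluster 2 and of Ptgir in cluster 6 did so for these genes, and Agtr1a and Avpr1a were spread over many clusters.

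Ednra, the type A endothelin receptor and the contractile one of smooth muscle (chr8:77663031-77724464, minus strand), was the other gene with high mural levels in every strain. It stood at 310.3 in Acta2GFP, 512.7 in C57BL6, 225.5 in Cspg4dsRED, 683.5 in the pool and 305.0 in PdgfrbGFP (407.4 ± 187.3, SD, n = 5). The lowest of these lay above the highest strain of any fibroblast cluster, which was the pool in cluster 4, at 194.6.

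Fibroblasts were not devoid of Ednra. Its level was 88.64 ± 74.00 (SD, n = 4) in the paramysial cluster 4, 73.24 ± 6.02 (n = 4) in cluster 6, 62.71 ± 41.29 (n = 4) in cluster 8 and 52.68 ± 28.50 (n = 4) in cluster 9, and the ranges of these neighbours overlapped. Cluster 6 was even across strains, from 65.21 in C57BL6 to 79.69 in Cspg4dsRED. Ednra was near absent from cluster 5, at 0.09381 ± 0.101 (n = 3).

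Mural cells exceeded 8 of the 9 fibroblast clusters in Ednra, by 2.64 (cluster 4) to 11.08 (cluster 5, with 4 counts in 31 cells) on the log2 scale. The exception was cluster 6, with a log2 difference of 2.16 ± 0.82 (SE) and an adjusted p of 0.0946 (edgeR), although all 4 strains with both clusters were higher in mural cells. The call against cluster 4 was lost under 8 of 14 alternatives, among them leaving out C57BL6, the pool or PdgfrbGFP, with log2 differences down to 1.45. Without the pool, those against clusters 8, 9 and 10 were lost too, and that against 10 also without PdgfrbGFP (adjusted p at most 0.0836). Against the mean of the fibroblast clusters the difference was 5.32 ± 0.44 (adjusted p = 1.95e-11). Of the exonic bases of Ednra, 1.66% overlap 4933431K23Rik on the opposite strand, and reads there cannot be assigned since the use of strand in counting was not stated.

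Ednrb, the type B receptor (chr14:103814625-103844402, minus strand), which in vessels is best known from the endothelium, was rare in these cells. Its mural level was 14.28 in Acta2GFP, 37.96 in C57BL6, 13.45 in Cspg4dsRED, 52.14 in the pool and 13.75 in PdgfrbGFP (26.32 ± 17.83, SD, n = 5). These levels rested on 22 of 187 mural cells with a count, of which 8 reached 100, and 1 cell gave 94.64% of the counts of Cspg4dsRED. Of the other clusters, only cluster 10 had a mean above 1, at 7.252 ± 12.10 (n = 3), and without its highest cell, from PdgfrbGFP, the mean was 0.1776.

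Ednrb was higher in mural cells than in clusters 1, 2, 3, 4, 5, 6 and 8 (log2 difference 6.37 to 9.58). Those clusters held between 1 (cluster 5) and 43 (cluster 3) counts each, so the sizes are uncertain. The differences from clusters 9 (5.12 ± 1.85, SE, edgeR adjusted p = 0.0724) and 10 (0.97 ± 1.96, adjusted p = 0.837) did not pass. Against the mean of all 9 it was 7.34 ± 0.88 (adjusted p = 4.87e-08). Without the 64 cells of all clusters that carried endothelial or immune markers at a summed level of 100 or more, 9 of them mural, the mural level of Ednrb was 16.49 and the call against the mean of the fibroblast clusters held. Cluster 10 then stood at 0.1776, the same as without its highest cell. Of the calls above, that against cluster 3 was lost when any of Acta2GFP, C57BL6, the pool or PdgfrbGFP was left out, that against cluster 5 without any of the last 3 and that against cluster 6 without the pool (adjusted p at most 0.148). With sums of 10 or more cells the calls against clusters 4 (adjusted p = 0.236) and 5 were lost.

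Agtr1a, the main angiotensin II receptor of vessels (chr13:30336441-30382867, plus strand), was held by fibroblasts and by few mural cells. Cluster 5 led with 97.32 in C57BL6, 174.3 in the pool and 38.08 in PdgfrbGFP (103.2 ± 68.3, SD, n = 3). Cluster 1 followed at 77.40 ± 26.39 (n = 4), with strains from 55.40 to 114.6, and cluster 10 at 66.25 ± 7.88 (n = 3), from 58.08 to 73.80. Clusters 3 (53.41 ± 22.79, n = 4) and 8 (39.49 ± 17.37, n = 4) were next among fibroblasts, and each cluster overlapped in range with its neighbour in this order.

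In mural cells the level of Agtr1a differed widely between strains: 2.256 in Acta2GFP, 219.1 in C57BL6, 0.1933 in Cspg4dsRED, 69.80 in the pool and 4.388 in PdgfrbGFP (59.16 ± 94.11, SD, n = 5). All 1040 counts of C57BL6 came from 1 cell, and without it the mural mean was 15.33. Only 5 mural cells reached 100. Of these, 4 held Rgs5, 4 held Kcnj8 and 4 held Abcc9 at 100 or more, which are markers of pericytes, whereas 2 held Myh11. Among all 187 mural cells these 4 genes were held by 38, 13, 13 and 179. With so few cells this is a description.

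The log2 differences of mural cells from clusters 1, 5 and 10 were −1.18 ± 1.03, −1.02 ± 1.07 and −2.06 ± 1.28 (SE), none of which passed (edgeR adjusted p 0.353 to 0.592). Agtr1a was higher in mural cells than in cluster 9 by 6.22 ± 1.3 (adjusted p = 0.000969). The same direction against cluster 4 (3.99 ± 1.19, adjusted p = 0.0239) was lost under 6 of 14 alternatives, including leaving out Acta2GFP, C57BL6 or PdgfrbGFP (largest adjusted p 0.969). Of the 50-base windows of its transcript, 1.27% also occur in other genes, Agtr1b among them.

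Avpr1a, the V1a vasopressin receptor (chr10:122448499-122453452, plus strand), was highest in 2 endomysial clusters. In cluster 5 it stood at 15.50 in C57BL6, 44.51 in the pool and 53.06 in PdgfrbGFP (37.69 ± 19.69, SD, n = 3), and in cluster 8 at 48.90 in Acta2GFP, 15.16 in C57BL6, 40.61 in the pool and 42.99 in PdgfrbGFP (36.92 ± 14.92, n = 4). Mural cells came next, with 23.81, 17.31, 40.46, 15.89 and 0.4156 in Acta2GFP, C57BL6, Cspg4dsRED, the pool and PdgfrbGFP (19.58 ± 14.49, n = 5). The 3 ranges overlapped. Of the mural cells 10 reached 100, and all 10 also held Myh11 and Acta2 at that level, contractile proteins of smooth muscle that 179 and 184 of all 187 mural cells held. Cnn1, another smooth muscle gene, was held by 6 of the 10 (147 of 187 overall) and Rgs5 by 3 (38 of 187).

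Avpr1a was higher in mural cells than in the perimysial clusters 2 (7.06 ± 1.87, SE, edgeR adjusted p = 0.00859) and 9 (10.56 ± 2.46, adjusted p = 0.00294). Cluster 9 held 1 count in 59 cells, so the size of that difference is uncertain. The call against cluster 2 was lost without the pool (adjusted p = 0.0678) and held in direction in 4 of 5 strains. Against the mean of the 9 clusters the difference was 4.03 ± 1.13 (adjusted p = 0.00859). That call was lost when Acta2GFP, Cspg4dsRED or the pool was left out and with plate in place of strain, with differences down to 2.67.

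Uts2r, the urotensin II receptor (chr11:121160271-121161973, plus strand), belonged to the perimysial cluster 2. Its level there was 203.4 in Acta2GFP, 66.21 in C57BL6, 246.4 in Cspg4dsRED, 150.5 in the pool and 130.2 in PdgfrbGFP (159.4 ± 69.1, SD, n = 5), and 74 of 269 cells reached 100. Cluster 9 stood at 10.67 in Acta2GFP, 0.3484 in C57BL6, 52.03 in the pool and 0 in PdgfrbGFP, below the lowest strain of cluster 2. In the other 8 clusters the mean was under 0.4. Among mural cells 0 of 187 reached 100, which allows a share of up to 1.604%, covering counting error only.

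Mural cells were lower than cluster 2 in Uts2r by 9.56 on the log2 scale (SE 1.35, edgeR adjusted p = 2.76e-06), with all 5 strains in this direction. The difference from cluster 9 was −5.55 ± 1.27 (adjusted p = 0.00243), but only 2 of 4 strains were lower in mural cells and 2 were higher. It was lost without the pool and with sums of 10 or more cells, where it shrank to as little as −2.35. Per kilobase of exon, Uts2r in cluster 2 reached 93.57, between the mural per-length levels of Gucy1a1 (126.8) and Ednra (74.39). The median depth was 256378 counts in cluster 2 and 156959 in cluster 7.

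Ptgir, the prostacyclin receptor (chr7:16906490-16910905, plus strand), led in endomysial cluster 6, at 117.3 in C57BL6, 162.9 in Cspg4dsRED, 102.9 in the pool and 77.31 in PdgfrbGFP (115.1 ± 35.9, SD, n = 4). Cluster 3, also endomysial, was second at 43.19 ± 18.30 (n = 4), with a highest strain of 67.82, so these did not overlap. The mural level was 7.418 in Acta2GFP, 39.91 in C57BL6, 1.150 in Cspg4dsRED, 1.353 in the pool and 1.081 in PdgfrbGFP (10.18 ± 16.84, n = 5). In C57BL6, 1 of 9 cells gave 99.27% of the counts, and without it the mural mean was 2.410.

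All 4 strains with both clusters had less Ptgir in mural cells than in cluster 6. The log2 difference of −4.09 ± 1.72 (SE) nevertheless did not pass (edgeR adjusted p = 0.142). Against cluster 3 it was −2.03 ± 1.57 (adjusted p = 0.526). In cluster 6, 73 of 231 cells held Ptgir and 53 held Ednra at 100 or more, and 20 cells held both, which is 27.4% of the former and 37.74% of the latter.

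Ptgfr, the receptor for prostaglandin F2 alpha (chr3:151796502-151837630, minus strand), was a gene of fibroblasts. Its highest level was in cluster 10, at 74.11 in Cspg4dsRED, 172.7 in the pool and 124.2 in PdgfrbGFP (123.7 ± 49.3, SD, n = 3). Clusters 4 (58.81 ± 45.36, n = 4), 3 (48.58 ± 27.72, n = 4) and 6 (33.07 ± 13.98, n = 4) followed, with overlapping ranges. Mural cells had 17 counts in all, in 15 cells, and a level of 0.3412 ± 0.4547 (n = 5), with 0 counts in C57BL6 and PdgfrbGFP.

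Ptgfr was lower in mural cells than in each of the 9 clusters, by 4.43 (cluster 1) to 9.18 (cluster 10) on the log2 scale, and by 6.46 against their mean (SE 1.45, edgeR adjusted p = 0.000996). Against clusters 2, 5 and 8, 1 strain in each ran the other way. The call against cluster 1 was lost under 8 of 14 alternatives, including leaving out any strain but C57BL6 (adjusted p up to 0.304). Leaving out PdgfrbGFP ended those against clusters 1, 2, 3, 4, 5, 8 and 9, and leaving out the pool those against 1, 2 and 5, while those against 6 and 10 and against the mean of the 9 held under every alternative run. Of its exonic bases, 4.85% overlap Gm43618 on the opposite strand.

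Ptger3, the EP3 receptor for prostaglandin E2 (chr3:157566892-157645888, plus strand), was low throughout. Its mural level was 19.95 in Acta2GFP, 0 in C57BL6, 41.30 in Cspg4dsRED, 0.09216 in the pool and 13.43 in PdgfrbGFP (14.96 ± 17.07, SD, n = 5). Clusters 3 (4.370 ± 3.027, n = 4), 6 (2.876 ± 3.147, n = 4) and 4 (2.329 ± 4.417, n = 4) came next, the remaining 6 were under 0.3, and the mural range overlapped with all of them. A level of 100 was reached by 12 mural cells. Of these, 10 held Gucy1a1 at that level, as did 158 of all 187 mural cells, and 0 held Gucy1b1 (87 of 187) or Avpr1a (10 of 187). The 12 were 6 in Acta2GFP, 5 in Cspg4dsRED and 1 in PdgfrbGFP, where 55.36%, 21.62% and 64.86% of mural cells held Gucy1b1. With so few cells this is a description.

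Ptger3 was higher in mural cells than in clusters 1, 2, 8, 9 and 10 (log2 difference 8.09 to 9.25) and against the mean of the 9 (6.69 ± 1.21, SE, edgeR adjusted p = 7.36e-05). Those single clusters held between 1 (cluster 9) and 4 (cluster 8) counts each, so the sizes are uncertain. In 3 of 5 strains the mural level was above cluster 2 and above the plain mean of that strain's fibroblast clusters. In 2 it was below both. It also passed against cluster 5, which had 0 counts in 31 cells, so no fold is given. Leaving out PdgfrbGFP ended the calls against all 6 of these single clusters (adjusted p up to 0.241), that against cluster 10 was lost without Acta2GFP, Cspg4dsRED or the pool as well, that against 5 without Acta2GFP or the pool, and that against 9 without Acta2GFP. The differences from clusters 3, 4 and 6 did not pass.

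**Figure D2:**
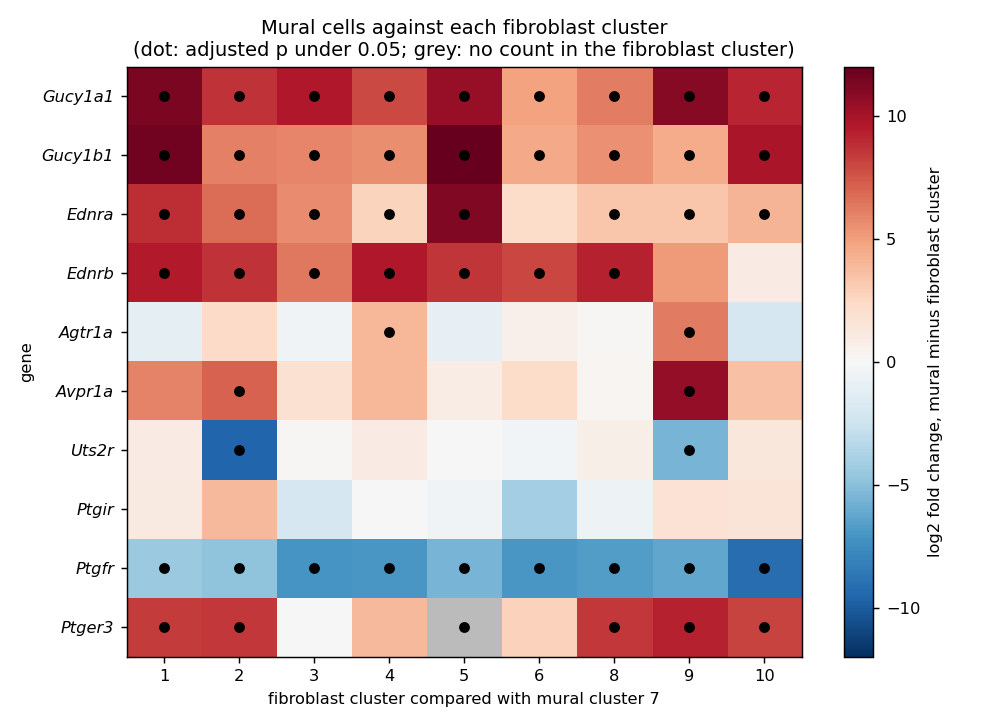
Log2 fold change of each gene in mural cluster 7 minus each of the 9 fibroblast clusters (colour), with a dot where the adjusted p of edgeR's test was under 0.05 and grey where the fibroblast cluster had no count. Rows for Gucy1a1 and Gucy1b1 were dotted and red throughout, the row for Ptgfr was dotted and blue throughout, and Ptgir had no dot.

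Counted by comparison, the genes called varied from 4 to 8 of 10. Of the 10, 6 passed against cluster 1, where 11.7% of the 16799 genes tested did, 8 against cluster 2 (12.5%), 5 against cluster 3 (10.6%), 6 against cluster 4 (11%) and 6 against cluster 5 (12.5%). The remaining counts were 4 against cluster 6 (10.2%), 6 against cluster 8 (10.5%), 8 against cluster 9 (11%) and 5 against cluster 10 (10.6%). Against the mean of the 9 fibroblast clusters, 6 were higher in mural cells (12.8% of all genes) and 1, Ptgfr, was lower (7.01%). Agtr1a (0.95 ± 0.75, SE), Uts2r (−1.25 ± 0.96) and Ptgir (0.12 ± 1.17) did not pass there (edgeR adjusted p 0.437 to 1.0). In plain levels, mural cells stood at 59.16 beside a fibroblast mean of 41.11 for Agtr1a. For Uts2r these were 0.3673 and 19.64, and for Ptgir 10.18 and 23.7. The median log2 difference of all genes in that comparison was 0.21, and it lay between −0.02 and 0.65 in the 9 single comparisons.

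Among fibroblasts, the perimysial clusters 2 and 9 were set against the 5 endomysial clusters. Of the 10 genes, 2 were higher in perimysial cells (6.19% of all genes) and 3 were lower (4.69%). Uts2r led, at 7.87 ± 0.73 on the log2 scale (SE, edgeR adjusted p = 5.98e-10), and it was higher in all 5 strains. Gucy1b1 was higher by 2.66 ± 0.73 (adjusted p = 0.0123), but in 3 of 5 strains only, and it was lost without Acta2GFP, C57BL6 or the pool (differences down to 1.61). Its level was 5.792 in cluster 2 and 14.19 in cluster 9, the latter 7.714 without its highest cell. Endomysial clusters 3 (5.887), 6 (10.22) and 8 (5.608) lay in the same range, and only clusters 1 (0.08626) and 5 (0.01648) were far lower. In all 5 strains, 3 receptors were lower in perimysial cells, with log2 differences of −4.63 ± 0.79 for Agtr1a (adjusted p = 5.52e-05), −6.60 ± 1.40 for Avpr1a (adjusted p = 0.00101) and −4.01 ± 1.10 for Ptgir (adjusted p = 0.0119). Endomysial cluster 1 did not share in all of this: it held Avpr1a at 0.9203 ± 1.736 (SD, n = 4) and Ptgir at 3.898 ± 4.184 (n = 4), the latter beside 3.705 ± 4.201 (n = 4) in perimysial cluster 9. The counts of strains compare the clusters each strain had, and these differed. Cspg4dsRED had only clusters 2 and 6 here, with Avpr1a at 0 and 0.05945, and Acta2GFP lacked clusters 5 and 6.

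Single cells differed in how many of the 10 genes they held at a level of 100 or more. Mural cells held 2.16 on average, and 75 of 187 (40.11%) held at least 3, against 0 to 4.329% of the cells in the other clusters. Only 11 mural cells (5.882%) held none, whereas between 33.33% and 76.27% of fibroblasts did. By gene, the share of mural cells at 100 or more was 88.13% ± 11.22 (SD, n = 5 strains) for Gucy1a1, 76.28% ± 21.32 for Ednra and 60.69% ± 25.06 for Gucy1b1. Cspg4dsRED was low for Ednra, at 44.59% against 67.57% to 100% in the other strains, and its mural cells were also the shallowest, with a median of 128711.5 counts and 2306.5 genes. The part of depth in this was not tested by strain. With cells thinned to 50000 counts, and the 4 cells of all clusters below that depth left out, the share for Gucy1a1 was 88.40%.

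**Figure D3:**
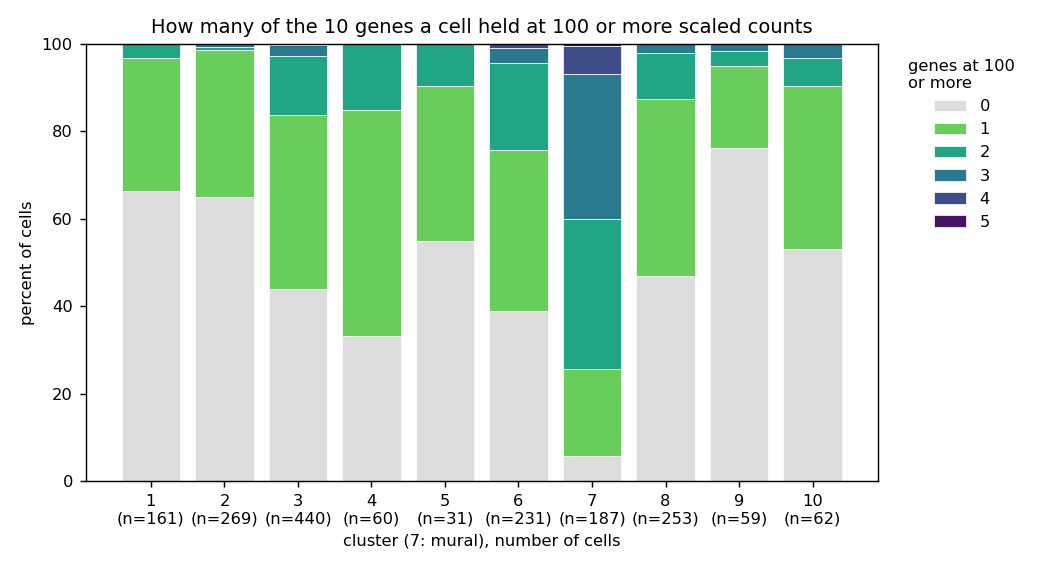
Percent of cells in each cluster (vertical axis) that held 0 to 5 of the 10 genes at 100 or more scaled counts, with the number of cells under each bar. In cluster 7, 40.11% of 187 cells held 3 or more, and 4.329% was the largest such share elsewhere (cluster 6).

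Other genes of the same pathways were taken from lists, whose counts against the fibroblast mean stand beside 12.8% higher and 7.01% lower among all genes tested. In the endothelin system (4 of 5 genes tested), 0 were higher in mural cells and 2 were lower than the fibroblast mean, with a median log2 difference of −1.90 beside 0.21 for all genes: Ece2 (−5.93 ± 1.67, SE) and Ece1 (−0.91 ± 0.22), which cleave the endothelin precursor. The ligand gene Edn1 reached 84.53 ± 29.52 (SD, n = 3) in cluster 5 and 38.71 ± 6.55 (n = 4) in cluster 1, where Ednra was lowest, and it was lower in perimysial than in endomysial clusters, with a log2 difference of −4.24 ± 1.01 (SE, edgeR adjusted p = 0.00359).

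Of 6 angiotensin genes tested, 1 was higher in mural cells and 1 lower (median −0.31), which is near those shares. The first was Agtr1b, the second mouse angiotensin receptor gene, at a level of 4.28 beside 0.0112 in fibroblasts (7.76 ± 1.08, SE, edgeR adjusted p = 0.000605). Its mural SD was 4.69 and a fibroblast cluster stood at 0, so the size is uncertain. The other was Ace, which makes angiotensin II, at 3.09 beside 214 (−5.46 ± 0.59, adjusted p = 7.2e-09). Ace was highest in clusters 3 (410.4 ± 160.3, SD, n = 4), 1 (377.8 ± 156.3, n = 4) and 5 (367.9 ± 51.7, n = 3), clusters that also held Agtr1a. None of 7 genes for vasopressin, oxytocin, urotensin and their other receptors had enough counts to be tested.

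Of 10 genes of prostanoid synthesis and breakdown, 0 were higher in mural cells and 3 were lower (median −0.61): Pla2g4a, which frees arachidonic acid (−4.56 ± 1.01, SE), Ptgs2, the inducible cyclooxygenase (−4.34 ± 1.22), and Hpgd, which breaks prostaglandins down (−3.05 ± 1.08). Ptgis, prostacyclin synthase, was higher in perimysial than in endomysial clusters, at a level of 471 beside 64.3 (3.39 ± 0.45, edgeR adjusted p = 9.06e-07), the opposite side from its receptor Ptgir. Of 5 other prostanoid receptors, 2 were higher in mural cells and 0 lower (median 0.85): Tbxa2r, the thromboxane receptor (58.8 beside 2.27, log2 difference 5.75 ± 1.05), and Ptgdr, for prostaglandin D2 (5.58 beside 0.00485). The mural SD of Ptgdr was 10.1, above its mean.

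Of 13 other genes of the nitric oxide and cyclic GMP pathway, 6 were higher in mural cells and 2 were lower, with a median of 3.91. The largest were Mrvi1, a target of the cyclic GMP kinase (9.21 ± 0.61, SE), that kinase itself, Prkg1 (7.35 ± 0.87), the phosphodiesterase Pde3a (6.15 ± 0.60) and Prkg2, a second cyclic GMP kinase (5.66 ± 1.01). The membrane-bound cyclases that sense natriuretic peptides went the other way, with −4.27 ± 1.16 for Npr1 and −4.04 ± 0.83 for Npr2. Of 13 genes of G protein coupling, 7 were higher and 0 lower (median 1.65), led by Rgs5 (10.01 ± 0.48) and Rgs4 (9.33 ± 0.53), which shorten signals of Gq and Gi. Rgs5 was also among the mural markers summed above. Rgs2 counted as higher although its plain level was 44.3 in mural cells beside a fibroblast mean of 64.5. Of 23 receptors for other vasoactive agents, 10 were higher and 2 lower (median 1.29), among them Adra2b (10.03 ± 0.93), Npy1r (9.39 ± 0.69) and Adra2a (9.13 ± 1.39) against F2r (−4.38 ± 0.66), a thrombin receptor.

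The genes whose levels over the 40 sums of strain and cluster were most like those of the 10 were found by Pearson's r, as a description, and the sums share strains and plates. Gucy1a1 was closest to Myh11 (r = 0.889), the heavy chain of smooth muscle myosin, and to Lmod1 (0.869), and Gucy1b1 to Heyl (0.828). Without the 5 mural sums r was 0.725, 0.669 and 0.794. Uts2r was closest to Wif1 (0.879), Agtr1a to Lrrc61 (0.802), Avpr1a to Aoc3 (0.671), Ptgir to Stx16 (0.677) and Ptger3 to Cstad (0.746). Ednrb was closest to Scn2b (0.874) and Cd93 (0.852), the latter a gene of endothelial cells. Ednra and Ptgfr were closest to the genes that overlap them, 4933431K23Rik (0.974) and Gm43618 (0.923), and next to Sparcl1 (0.870) and Bmper (0.751).

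In the pool and in PdgfrbGFP the soleus, a slow muscle, and the gastrocnemius, a mostly fast one, were kept apart. Part of these cells were sorted with soleus and gastrocnemius on separate plates, and there muscle and plate cannot be told apart. The following 4 pairs of gene and cluster were chosen after their values were seen and were not tested. Uts2r in cluster 2 stood in the pool at 294.3 in soleus and 89.94 in gastrocnemius, while PdgfrbGFP had 183.0 and 87.23. Ednra in cluster 6 followed with 93.00 and 52.52 for the pool and 120.0 and 53.51 for PdgfrbGFP. Both were higher in soleus under both labels, on as few as 7 cells a muscle for Uts2r. Agtr1a in cluster 6 ran the other way: the pool had 4.117 in soleus and 34.19 in gastrocnemius, and PdgfrbGFP had 6.385 and 31.65. Avpr1a in cluster 3 did too, with 2.244 and 14.99 for the pool and 3.815 and 35.66 for PdgfrbGFP. In cluster 8 both labels did not go the same way for Agtr1a (76.47 and 36.50 in the pool, 20.48 and 30.71 in PdgfrbGFP).

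**Figure D4:**
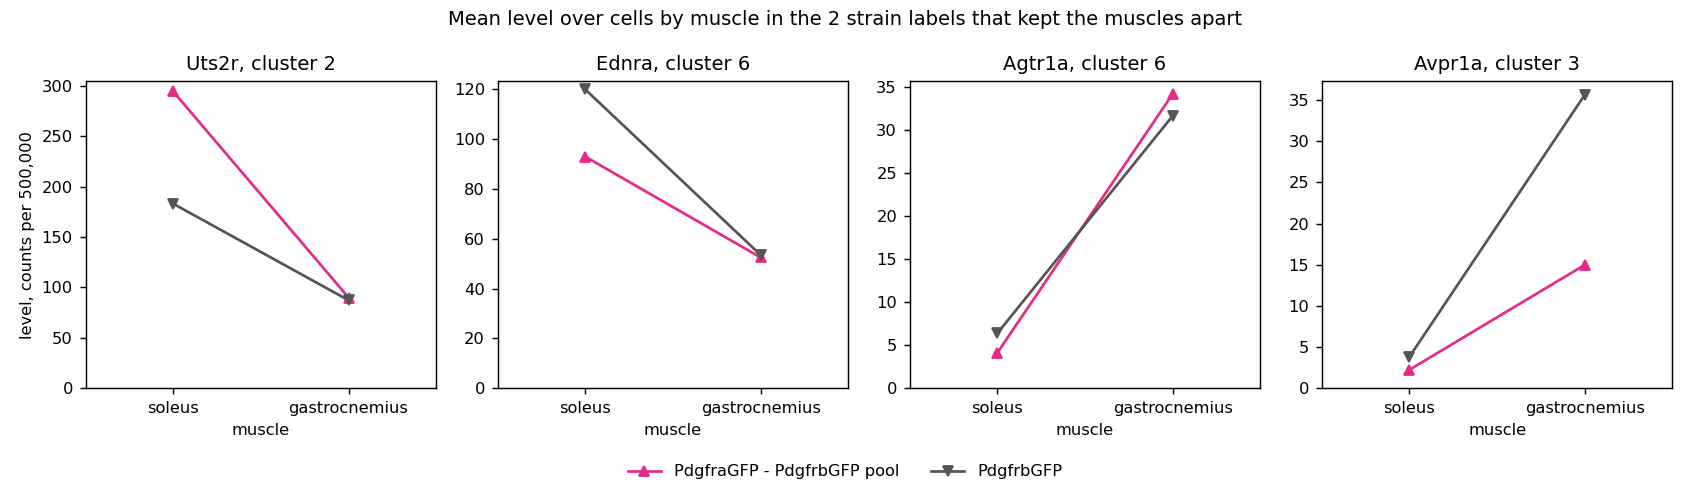
Mean level over cells (counts per 500,000) in soleus and gastrocnemius for 4 pairs of gene and cluster, with 1 line per strain label that kept the muscles apart. Uts2r in cluster 2 and Ednra in cluster 6 were higher in soleus on both lines, and Agtr1a in cluster 6 and Avpr1a in cluster 3 were higher in gastrocnemius. Part of the cells came from plates of a single muscle.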

How the data were processed

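Smart-seq2 libraries were made from single sorted cells. The deposited values are raw counts of reads per gene and cell: the authors demultiplexed with bcl2fastq, mapped to GRCm38 (mm10) by TopHat with Bowtie or Bowtie2 and counted with featureCounts, and the use of strand was not stated. They removed shallow cells and likely doublets. Cells that expressed neither Pdgfra nor Pdgfrb, and cells clearly contaminated with endothelial or immune signatures, were also removed. Cells positive for CD31, an endothelial marker, were left out at sorting. No molecular identifiers were used, so counting intervals cover counting error only. Of 1754 columns of cells, 1753 matched a label and 1 was not used. Spike-in rows (92 rows, 1.306% of counts) were left out. Gene identifiers were matched to symbols for 46005 of 46517 rows. Each cell was scaled to 500000 counts for levels, and 100 such counts was the level for calling a gene held.

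For tests, raw counts were summed per strain label and cluster (3 or more cells, 40 sums) and fitted once with cluster and strain as terms in edgeR 4.0.16 (R 4.3.3, quasi-likelihood, Benjamini-Hochberg over 16799 genes, called at an adjusted p under 0.05). SE is the absolute log2 fold change divided by the square root of F. The clusters were made from the same counts, and although different lines are different mice, the number of mice behind each label was not given and the pool also includes PdgfrbGFP, so p-values measure the spread between these sums. The strain label pairs the sums. Sums of one strain deviated together from their cluster means with a median r between 0.037 and 0.148, and from sums of other strains with −0.026 to −0.018. DESeq2 1.42.0 and other settings were alternatives. The 10 genes, the lists and the tests were chosen with earlier results of these data known. From each list, up to 4 of the genes called in a direction were named by size of change, and for each of the 10 the 3 genes with the highest r were kept. Python 3.11.15 was used for levels and figures.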

Additional observations from a re-analysis of the deposited data

Results flagged for a closer look

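Over the groups of 4 or 5 strains, 34 were looked at for a strain that stood apart, and 1 did: Ptgir in mural cells, where C57BL6 was at 39.91 and the next strain, Acta2GFP, at 7.418. The gap took a share of 0.837 of the whole range of the 5 strains. Chance alone would flag about 1 group in 20. One cell of the 9 mural cells of C57BL6 carried 410 of the 413 counts of Ptgir in that group.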

How the results depend on the processing

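Of the 110 log2 differences (10 genes, 11 comparisons), 66 were called, and 0 of these reversed under any of the 14 alternatives. All 66 calls held with DESeq2, with RLE size factors and with spike-ins in the library size. Without the replicate block (no strain term) and with plate in place of strain 64 held, without cells that carry endothelial or immune markers (chosen after seeing the data) 63, with no filter on low counts 62, with cells weighted alike 60 and with sums of 10 or more cells 55. Leaving out a strain kept between 46 (without PdgfrbGFP) and 63 (without Cspg4dsRED), and 49 without the pool. The rare genes Ednrb, Agtr1a, Avpr1a and Ptger3 rested on 5 to 12 mural cells each at a level of 100. The part of depth in this was not tested.

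Without the replicate block, between 1713 (against cluster 3) and 3671 genes (against the fibroblast mean) were called over all genes, within 1.5 times of the fit with it. DESeq2 called more genes against clusters 1, 2, 3, 4, 5, 6, 8, 9 and 10: 3053, 3338, 2712, 3383, 4191, 2820, 2784, 3162 and 3493, where edgeR called 1967, 2108, 1778, 1840, 2103, 1709, 1762, 1851 and 1789. Sums of 10 or more cells gave 789 against cluster 4. Leaving out 1 strain gave 1117 to 1809 against cluster 1, 1300 to 1893 (cluster 2), 1010 to 1655 (3), 995 to 1679 (4), 986 to 1926 (5), 961 to 1512 (6), 1014 to 1636 (8), 1005 to 1768 (9) and 808 to 1878 (10).

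Of the 44 differences that were not called, some passed with the same sign under an alternative. These were 7 with DESeq2, and 3 each with plate in place of strain, without the replicate block and without C57BL6. Without Acta2GFP and without the cells that carry endothelial or immune markers there were 2 each, and fewer or similar numbers under others. Of the same 44, 20 changed sign under some alternative, and the cause was not tested. With sums of 10 or more cells, Agtr1a was −1.14 against cluster 6, −1.55 against 8 and −0.89 against the fibroblast mean, Uts2r −0.72 against cluster 3 and −0.79 against 4, and Ptgir −1.68, −3.58, −0.62, −1.28 and −2.68 against clusters 1, 4, 9, 10 and the mean. With plate in place of strain, Ednrb was −0.41 in perimysial against endomysial clusters, Agtr1a −0.15 against cluster 8, Avpr1a −0.26 and −1.47 against 5 and 8, Uts2r 0.19 against 5, and Ptgir −0.22 and −0.35 against 4 and the mean. Without the replicate block, Agtr1a was 0.34 against cluster 3, Avpr1a −0.39 and −0.76 against 5 and 8, Uts2r 0.44 against 5 and Ptgir 0.42 against 8. With cells weighted alike, Uts2r was 0.54 against cluster 5, Ptgir −0.55 and −0.40 against 4 and the mean, and Ptger3 −0.49 against 3. Without the cells that carry endothelial or immune markers, Ednrb was −0.31 in perimysial against endomysial clusters, Agtr1a −0.01 and Avpr1a −0.28 against cluster 8, Uts2r 0.16 against 5 and Ptgir 0.53 against 8. With no filter on low counts, Agtr1a was −0.10 against cluster 8 and Uts2r 0.04 against 5, where DESeq2 gave 0.22 and RLE size factors 0.07.

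Leaving out 1 strain moved Ednrb in perimysial against endomysial clusters between −0.53 and 2.24. Agtr1a ran from −2.12 to 0.35 against cluster 3, −1.09 to 1.31 against 6, −1.60 to 0.70 against 8 and −0.76 to 1.44 against the mean. Avpr1a ran from −0.23 to 1.66 against cluster 5 and −0.78 to 0.95 against 8. Uts2r ran from −0.15 to 0.60 against cluster 3, −0.72 to 4.72 against 5, −0.89 to 0.31 against 6 and −0.04 to 2.39 against 10. Ptgir ran from −1.31 to 2.08 against cluster 1, −1.64 to 1.26 against 4, −1.86 to 0.12 against 5, −2.78 to 0.85 against 8, −0.66 to 3.69 against 9, −0.40 to 5.37 against 10 and −1.87 to 0.83 against the mean. Ptger3 ran from −1.64 to 3.41 against cluster 3.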
